A study of Mus musculus with 8 samples.

Results

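The genes described here are 8 members of the mouse PYHIN family, the interferon-inducible genes Aim2, Ifi204, Ifi203, Mndal, Ifi206, Ifi208, Ifi209 and Ifi213. They were taken by symbol from a table of normalized RNA seq counts for 22829 genes. They were selected on symbol and on the mean over the 8 samples, with any member under 10 normalized counts to be given as low only. All 8 members were listed and all 8 passed, also on the mean of each group alone, the nearest to the limit being Ifi204 with a mean of 80.8, and no member fell below it. The family was proposed with earlier results of these data known.

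The 8 samples were T cells from ROR-γt-/- mice, which lack the transcription factor that directs Th17 differentiation. The CD4+ T cells were purified from spleen, given back ROR-γt by lentivirus and cultured in Th17-polarizing conditions. In 4 samples the virus carried WT-ROR-γt and in the other 4 K187R-ROR-γt, in which the lysine that takes up the small modifier SUMO is replaced by arginine, and every sample shared the deletion of the endogenous gene. The comparison asks how the transcriptome differs when ROR-γt cannot be SUMOylated. The expression of ROR-γt came from the virus, so its level was not under the control of the cells' own gene, and the age of the mice is not given in the sources used here. The deposited design text speaks of 4 mice per group, whereas the sample labels and the methods describe transduced cells and do not say whether each sample came from its own animal or culture. The p-values measure the spread between these samples, and where samples shared an animal or culture that spread is technical.

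PYHIN proteins pair an N-terminal pyrin domain, which binds other pyrin domains, with one or more C-terminal HIN domains that bind DNA, although some members lack one of these parts. AIM2 binds double-stranded DNA in the cytosol and assembles with the adaptor ASC and caspase-1 into an inflammasome, while others act in the nucleus or upstream of STING in the induction of interferon. Their genes lie side by side on mouse chromosome 1, many are induced by interferon, and several are expressed in lymphocytes as well as in macrophages.

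Normalized counts are the reads counted on a gene divided by 1 size factor per sample. The samples had 52456804 to 74676721 reads on genes, and 3 reads, the smallest count taken as detectable, corresponded to between 2.54 and 3.56 normalized counts. Markers of CD4 T cells summed to between 217238 and 267642 normalized counts in every sample, and none of the 11 was at 0, nor was any of 10 Th17 markers, which summed to between 71353 and 106295. The main variation among samples ran across both groups. Clustering of 16841 genes outside the family and the lists used here was cut into 3 sets, a number that was set and not found by the clustering. The sets hold WT 1, WT 3 and K187R 1, then WT 2, K187R 2 and K187R 3, and then WT 4 and K187R 4. Each set has a single sample of at least 1 group, so a difference within a set rests on 1 library of that group. Xist, the transcript of the inactive X chromosome, had between 13564 and 17373 normalized counts in the samples of the second set and between 3.56 and 23.7 in the other 5. By this transcript the second set holds female cells and the other 5 samples male cells. Sex was thus not balanced between the groups, with WT 2 in one and K187R 2 and K187R 3 in the other. Its part in the members' differences was not tested.

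The 8 members lie within 592 kb of chromosome 1 in GRCm38, in the order Aim2, Ifi206, Ifi213, Ifi209, Ifi208, Ifi204, Mndal and Ifi203. Aim2, Ifi208 and Ifi209 are on the plus strand and the remaining 5 on the minus strand. The windows below are shown because they hold the stretch that most of these promoters share, a match to the core of the interferon-stimulated response element. They are from RefSeq (GRCm38.p6), are written 5′ to 3′ on the strand of the gene, and were chosen as the 10 bases of the match with 10 bases on each side. The capitals mark the match, the letters GAAA followed by any 2 bases and GAAA again, called the paired GAAA motif from here on.
Ifi206 (chr1:173491339-173491368, minus strand): tgtctctgagGAAATCGAAAgctatgaacc
Ifi208 (chr1:173673597-173673626, plus strand): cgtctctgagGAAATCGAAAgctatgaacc
Ifi213 (chr1:173599326-173599355, minus strand): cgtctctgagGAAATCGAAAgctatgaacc
Ifi203 (chr1:173942508-173942537, minus strand): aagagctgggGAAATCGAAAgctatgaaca
Mndal (chr1:173880204-173880233, minus strand): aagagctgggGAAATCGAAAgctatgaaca
Ifi214 (chr1:173536017-173536046, minus strand): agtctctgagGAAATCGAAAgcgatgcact
Ifi209 (chr1:173630770-173630799, plus strand): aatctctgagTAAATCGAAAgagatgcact
The windows of Ifi208 and Ifi213 were identical, and so were those of Ifi203 and Mndal. Ifi214, a family gene outside the 8 members, is shown because its upstream sequence was the nearest to that of Ifi209. In Ifi209 the capitals mark the corresponding bases, which carry the substitution G1T relative to Ifi214, counted from 1 at the 5′ end of the match, and so do not match the pattern.

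Of the 8 members, 7 had a promoter in the RefSeq table, and the 250 bases before each annotated start were searched on both strands. The paired GAAA motif was found in 5 of these 7 members (Ifi203, Ifi206, Ifi208, Ifi213 and Mndal), in 4 of 5 other family genes, and in 2.98% of the 32851 promoters of the table. A family gene is counted here when any of its starts has a match. This percentage and those below are over single promoters, of which some genes have several (27025 symbols), so the units are not alike. The first base of the match lay 40 bases before the start in Ifi206, 58 in Ifi208, 73 in Ifi213, 36 in Mndal and 35 in Ifi203. Ifi203 and Mndal each have a further annotated start. The further start of Ifi203 had no match in its 250 bases, and that of Mndal had a match on the opposite strand, 54 bases before it. The same letters with 3 bases between them were in 0 of the 7 (2.38% of all promoters), and so were the STAT pattern TTCNNNGAA (7.02%), the E-box CACGTG (6.02%) and the core AGGTCA (14%) to which ROR-γt binds. The related core GGGTCA was found in Ifi203, Mndal and Aim2 (11.6% of all promoters). TTC and GAA with 4 bases between them were in Ifi203, Ifi206, Ifi208 and Ifi213 (5.85%). The letters TATAAA, at any position and on either strand, were in Ifi206, Ifi208, Ifi209 and Ifi213 (12.4%). In Ifi206 and Ifi208 they lay far upstream of the paired GAAA motif, and in Ifi209 they were on the opposite strand, so they are not read as TATA boxes. The AP-1 site TGACTCA, which read on the other strand is TGAGTCA, was in Ifi209 and Mndal (4.46%), and GAGGAAGT, an ETS-type pattern, was in Aim2 (2.44%). These matches are descriptions of letters in a window, and no binding was measured here.

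**Figure D1:**
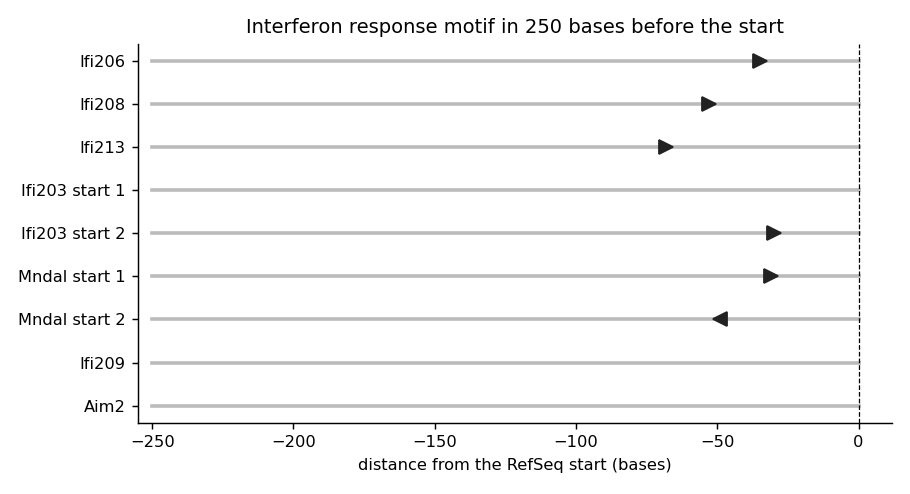
Position of matches to the paired GAAA motif in the 250 bases before each annotated RefSeq start of 7 members (x axis, bases from the start), with 1 grey line per start and arrowheads pointing along the strand of the match. Arrowheads are drawn at the centre of the match, between 30 and 68 bases before the start in 6 of the 9 lines, while Ifi209, Aim2 and the first start of Ifi203 have none.

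Whole upstream sequences are printed for Ifi206, Ifi208 and Ifi209, because the first pair is nearly the same over its length and the third is the relative without the match. All are from RefSeq (GRCm38.p6) on the strand of the gene, and capitals again mark the paired GAAA motif.
Ifi206 (chr1:173491319-173491568, minus strand): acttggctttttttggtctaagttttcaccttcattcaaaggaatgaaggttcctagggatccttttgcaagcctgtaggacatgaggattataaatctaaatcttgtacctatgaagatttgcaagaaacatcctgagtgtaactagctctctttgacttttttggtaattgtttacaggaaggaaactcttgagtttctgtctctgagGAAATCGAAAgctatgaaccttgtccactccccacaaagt
Ifi208 (chr1:173673415-173673664, plus strand): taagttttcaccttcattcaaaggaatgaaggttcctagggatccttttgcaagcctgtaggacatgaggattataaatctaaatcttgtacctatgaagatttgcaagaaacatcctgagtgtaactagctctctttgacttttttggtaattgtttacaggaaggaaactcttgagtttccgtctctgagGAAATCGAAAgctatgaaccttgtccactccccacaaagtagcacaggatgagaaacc
Ifi209 (chr1:173630609-173630858, plus strand): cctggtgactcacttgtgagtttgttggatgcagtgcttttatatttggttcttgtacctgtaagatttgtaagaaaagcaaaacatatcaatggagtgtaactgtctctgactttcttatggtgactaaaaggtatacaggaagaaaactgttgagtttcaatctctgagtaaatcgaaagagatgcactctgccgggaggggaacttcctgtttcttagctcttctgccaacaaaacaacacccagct
In a pairwise alignment of the 250 bases, 231 were identical between Ifi208 and Ifi206. Ifi208 and Ifi213 shared 233, as did the second start of Ifi203 and the first start of Mndal, and Ifi213 and Ifi206 shared 214. These were the pairs with at least 200 identical bases among the 36 pairs of member starts, and the other pairs shared between 134 and 170. Ifi209 shared 237 with Ifi214.

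Levels were compared between genes as RPKM, the reads per kilobase of merged exons scaled to a common depth. On this scale Mndal had the highest mean over the 8 samples, 24.7 ± 4.92 (SD, n = 8), followed by Ifi209 with 19.8 ± 6.75, Aim2 with 10.9 ± 3.23 and Ifi203 with 10.8 ± 2.79. Ifi206 had 4.73 ± 1.95, Ifi208 3.23 ± 1.10, Ifi213 0.881 ± 0.432 and Ifi204 0.372 ± 0.152 (SD, n = 8 each). Every pair of neighbours in this order overlapped in range except Ifi208, whose lowest sample was at 2.09, and Ifi213, whose highest was at 1.58. Aim2 was above Ifi203 in only 5 of the 8 samples, so their order is not resolved. The remaining neighbours kept their order in 7 or 8 of the 8 samples. The other family genes listed were Ifi214, Ifi207, Ifi211 and Ifi205, with means of 657, 68.8, 30.9 and 17.3 normalized counts, and the pseudogene Ifi203-ps with 4.89.

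**Figure D2:**
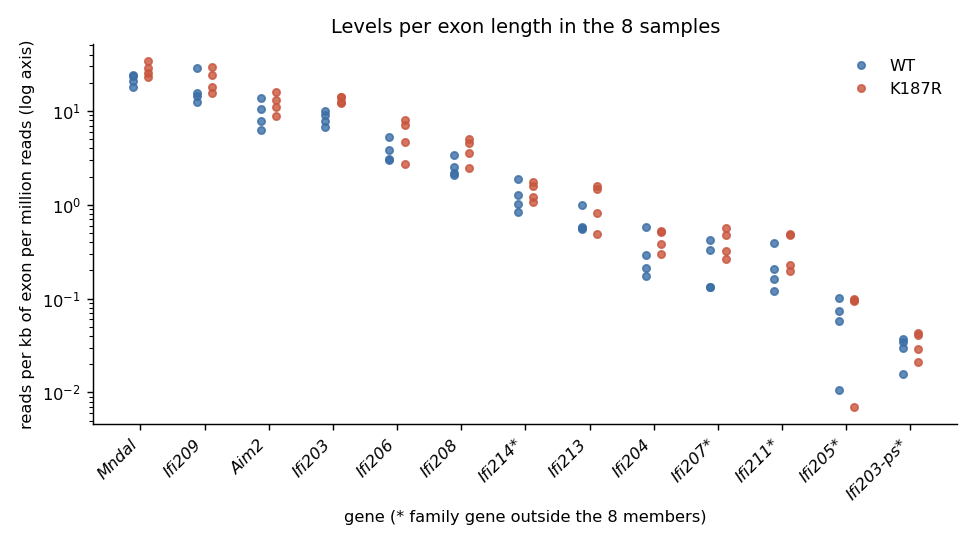
Level of each listed PYHIN gene in each sample, in RPKM on a log axis, with WT in blue and K187R in red, and an asterisk at family genes outside the 8 members. The order runs from Mndal (17.9 to 33.9) to Ifi203-ps, and Ifi204 is the lowest of the 8 members (0.173 to 0.582).

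How far reads of near-identical relatives could be exchanged differed between members. Of the 75-base windows of its transcripts, Ifi209 had 23.1% that occur letter for letter in another gene, all of them in Ifi214. The share was 17.6% for Ifi206, 13.2% for Ifi204, 11.8% for Ifi208, 11.1% for Mndal, 8.07% for Ifi213, 5.71% for Ifi203 and 0% for Aim2. Ifi206, Ifi208 and Ifi213 share such windows with each other, and Mndal shares them with Ifi211, Ifi205, Ifi203 and Ifi204. In addition, 4.27% of the exon bases of Mndal overlap Gm38050 or Ifi203 on the same strand. How multiply matching reads were counted is not given in the sources used here, so the split of reads among these genes is uncertain for every member except Aim2.

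Between the groups, the members' log2 fold changes (mean of K187R minus mean of WT as log2(normalized count + 1), where the added 1 shrinks differences of low genes) were all above 0, from 0.32 for Ifi209 to 0.64 for Ifi203. The median was 0.51, beside -0.0062 for all 16982 genes tested, of which 48.4% were above 0. None of the 8 members was called at an adjusted p under 0.05 in limma, and the background was 0% of all genes, with 746 genes (4.39%) at an unadjusted p under 0.05. Before adjustment, 3 of the 8 members (Ifi203, Ifi208 and Mndal) were higher in K187R with a limma p under 0.05, where 2.75% of all genes were, and 0 were lower, where 1.64% were. This count of 3 depended on single libraries: it was 1 without WT 3, K187R 2 or K187R 3, 2 without WT 1 or WT 4, 5 without K187R 4 and 6 without WT 2. The groups did not overlap for 1 of the 8, Ifi203, where 1.47% of all genes were higher in K187R without overlap, and for 0 of 8 in the other direction (0.989% of all genes). These counts describe a family picked with results known, and members share sequence and vary together.

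**Figure D3:**
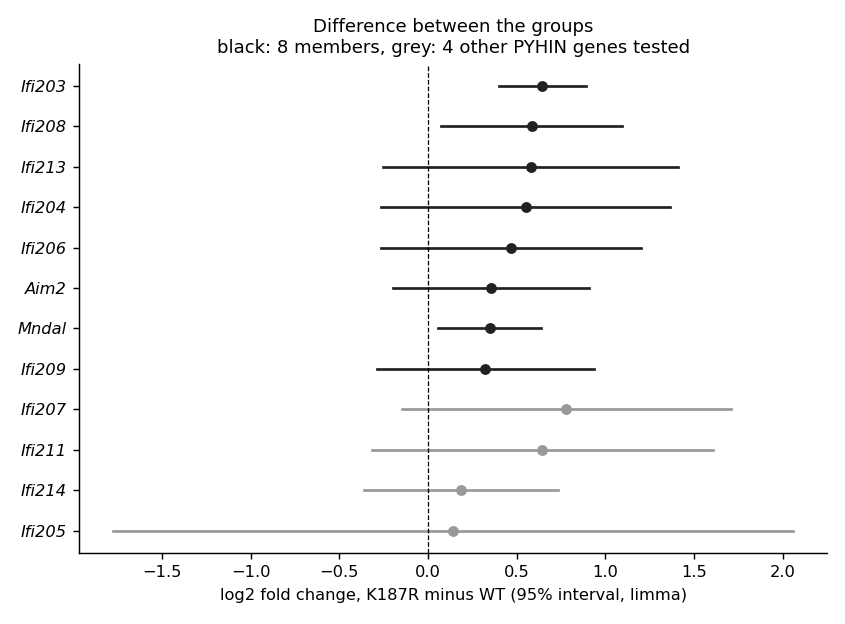
Log2 fold change of each gene (x axis, K187R minus WT, points) with its 95% interval from limma (lines), for the 8 members in black and 4 other PYHIN genes in grey. All points are above 0, and the intervals of Ifi203, Ifi208 and Mndal alone do not reach 0.

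Aim2 (ENSMUSG00000037860, chr1:173350879-173466040) encodes the cytosolic DNA sensor of the AIM2 inflammasome. Its normalized counts were 1709, 2970, 1387 and 2188 in WT 1 to 4 and 1875, 3370, 2781 and 2344 in K187R 1 to 4. The highest samples were K187R 2, WT 2 and K187R 3, the lowest was WT 3, and the groups overlapped. The mean was 2063 ± 688 for WT and 2592 ± 637 for K187R (n = 4 each, SD). The log2 fold change of 0.35 (95% interval -0.20 to 0.90) had an adjusted p of 0.921 in limma and an exact two-sided permutation p of 0.257. It was 0.18 without WT 3, 0.22 without K187R 2 and 0.55 without WT 2. Within the sample sets the differences were 0.28, 0.04 and 0.10.

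Ifi204 (ENSMUSG00000073489, chr1:173747293-173766943), which encodes p204, a DNA sensor that acts through STING, was the lowest member. WT 1 to 4 had 47.5, 127, 38.9 and 61.0 normalized counts, and K187R 1 to 4 had 82.5, 113, 112 and 64.9. WT 2 was the highest of all samples and WT 3 the lowest, so WT spanned the whole range of K187R. The group means were 68.6 ± 39.9 and 93.0 ± 23.4 (n = 4 each, SD), a log2 fold change of 0.55 (95% interval -0.26 to 1.36, adjusted p = 0.921 in limma, two-sided exact permutation p = 0.257). The differences within the sets were 0.92, -0.18 and 0.09, with a negative value in the set of WT 2. The log2 fold change was 0.89 without WT 2 and 0.33 without WT 3. With between 40 and 132 reads per sample, Ifi204 also had the widest relative counting error of the members.

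Ifi203 (ENSMUSG00000039997, chr1:173920407-173942672), which encodes a nuclear HIN domain protein, was the member whose groups were furthest apart for their spread. WT 1 to 4 had 3246, 3735, 2893 and 3985 normalized counts, and K187R 1 to 4 had 5752, 5773, 4957 and 5073. The groups did not overlap, and the gap between WT 4 and K187R 3 was wider than the SD of either group. The means of 3465 ± 489 (n = 4, SD) and 5389 ± 434 (n = 4, SD) gave a log2 fold change of 0.64 (95% interval 0.40 to 0.89), a fold of 1.56 (1.32 to 1.85). The exact two-sided permutation p was 0.0286, the smallest that 4 samples against 4 can give. In limma the p was 0.000200, the 9th smallest of all genes, and it did not pass adjustment over all genes (adjusted p = 0.378 from limma). DESeq2 on the recovered reads called it (adjusted p = 0.000408 from DESeq2), as it did 0.1% of all genes in that direction. K187R was above WT within each sample set, by 0.91, 0.52 and 0.35, each resting on a single library in at least 1 of the groups.

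Mndal (ENSMUSG00000090272, chr1:173849126-173942491), related to the human myeloid nuclear differentiation antigen, had the highest count of the members. Its annotated span overlaps that of Ifi203 on the same strand. Its normalized counts were 4710, 5209, 4104 and 5181 in WT 1 to 4 and 5700, 7488, 6389 and 5012 in K187R 1 to 4. Apart from K187R 4, which lay among the WT samples, each K187R sample was above each WT sample. The groups had 4801 ± 518 and 6147 ± 1056 (n = 4 each, SD), a log2 fold change of 0.35 (95% interval 0.06 to 0.64). The limma p of 0.0241 did not pass adjustment over all genes (adjusted p = 0.921 in limma), and the exact two-sided permutation p was 0.0857. The differences within the sets were 0.37, 0.41 and -0.05.

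**Figure D4:**
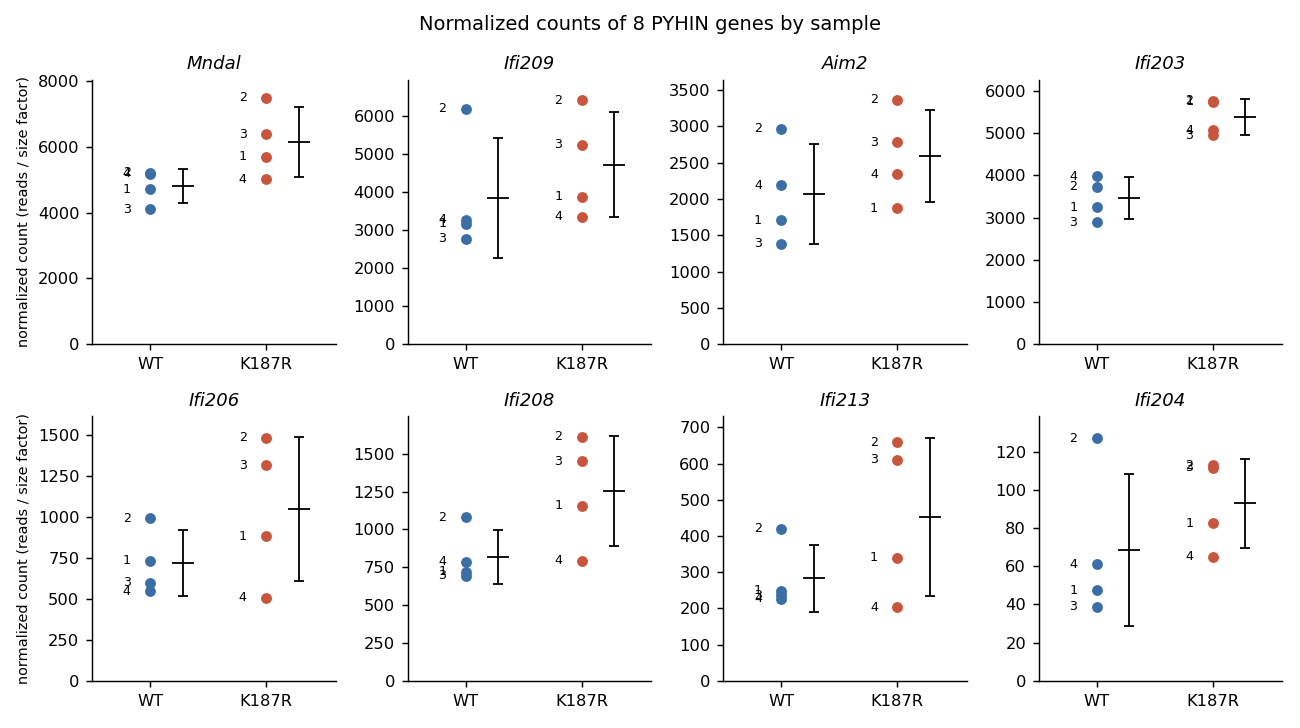
Normalized counts (y axis, linear from 0) of the 8 members in each sample, with WT in blue, K187R in red, the replicate number beside each point, and the mean with the SD of 4 samples as bars. Only for Ifi203 are all K187R points above all WT points, and WT 2 stands above the other WT samples for most members.

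Ifi206, Ifi208 and Ifi213, which share upstream and transcript sequence, followed one another closely over the samples, and each encodes a PYHIN protein whose role is less studied than those of the sensors above. Ifi208 (ENSMUSG00000066677, chr1:173673675-173698395) had 720.1, 1080, 693 and 786 normalized counts in WT 1 to 4 and 1157, 1613, 1452 and 792 in K187R 1 to 4. As for Mndal, K187R 4 was the one sample of its group among the WT samples. The means of 820 ± 178 and 1253 ± 361 (n = 4 each, SD) gave a log2 fold change of 0.58 (95% interval 0.08 to 1.09), with a limma p of 0.0288 (adjusted p = 0.921 in limma) and an exact two-sided permutation p of 0.0571. Within the sets the difference was 0.71, 0.50 and 0.01.

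Ifi206 (ENSMUSG00000037849, chr1:173468485-173491041) had 734, 994, 599.6 and 548 normalized counts in WT 1 to 4 and 882, 1485, 1318 and 508 in K187R 1 to 4. K187R 4 was the lowest of all samples and K187R 2 the highest, and the K187R group thus spanned that of WT. The log2 fold change from 719 ± 199 to 1048 ± 441 (n = 4 each, SD) was 0.47 (95% interval -0.27 to 1.20, adjusted p = 0.921 in limma, two-sided exact permutation p = 0.286). It was 0.78 without K187R 4 and 0.26 without K187R 2.

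Ifi213 (ENSMUSG00000073491, chr1:173566283-173599274) had 248, 420.1, 236 and 227 normalized counts in WT 1 to 4 and 340.0, 659, 611 and 204 in K187R 1 to 4. The 3 WT samples other than WT 2 lay close together, and K187R 4 was again below all of them. From 283 ± 91.8 in WT to 454 ± 218 in K187R (n = 4 each, SD), the log2 fold change was 0.58 (95% interval -0.25 to 1.41, adjusted p = 0.921 in limma, two-sided exact permutation p = 0.257). It was 0.91 without K187R 4, 0.35 without K187R 2 and 0.38 without K187R 3. Within the sets the differences were 0.49, 0.59 and -0.16 for Ifi213 and 0.41, 0.49 and -0.11 for Ifi206.

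Ifi209 (ENSMUSG00000043263, chr1:173630917-173647928), next to Ifi208 on the same strand, had 3174, 6203, 2779 and 3271 normalized counts in WT 1 to 4 and 3879, 6424, 5251 and 3352 in K187R 1 to 4. WT 2 was close to the highest K187R sample, and the other WT samples lay below all K187R samples. The means were 3857 ± 1579 and 4727 ± 1386 (n = 4 each, SD), and the log2 fold change of 0.32 (95% interval -0.29 to 0.94, adjusted p = 0.921 in limma, two-sided exact permutation p = 0.257) was the smallest of the members. It was 0.58 without WT 2, 0.16 without K187R 2 and 0.19 without WT 3. Within the sets the differences were 0.39, -0.09 and 0.04.

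The members varied more between samples than most genes did. The SD of the log2 values over the 8 samples had a median of 0.47 over the members and 0.22 over all genes tested, from 0.27 for Mndal to 0.66 for Ifi213. K187R 2 was the highest sample for 7 of the 8 members and WT 2 for Ifi204, while WT 3 was the lowest for 6 of them and K187R 4 for Ifi206 and Ifi213. The 3 highest samples were WT 2, K187R 2 and K187R 3, those with a high Xist count, for 5 of the 8 members (Aim2, Ifi204, Ifi206, Ifi209 and Ifi213), where 8.46% of all genes had this pattern. Averaged over the members after centring each gene, the log2 deviation was -0.38, 0.28, -0.58 and -0.29 in WT 1 to 4 and 0.08, 0.66, 0.47 and -0.25 in K187R 1 to 4. Ifi203 departed from this pattern, since K187R 1 and K187R 4 were above every WT sample there. Ifi208 and Mndal departed from it in K187R 1 alone, which was also above every WT sample for these members. With the sample set as a factor in limma, the log2 fold change was 0.61 for Ifi203, 0.44 for Ifi208, 0.35 for Ifi213, 0.30 for Ifi204 and Ifi206, 0.27 for Mndal, 0.15 for Aim2 and 0.12 for Ifi209. Each was below its value without the set, and the smallest adjusted p among them was that of Ifi203 (0.197 from limma).

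**Figure D5:**
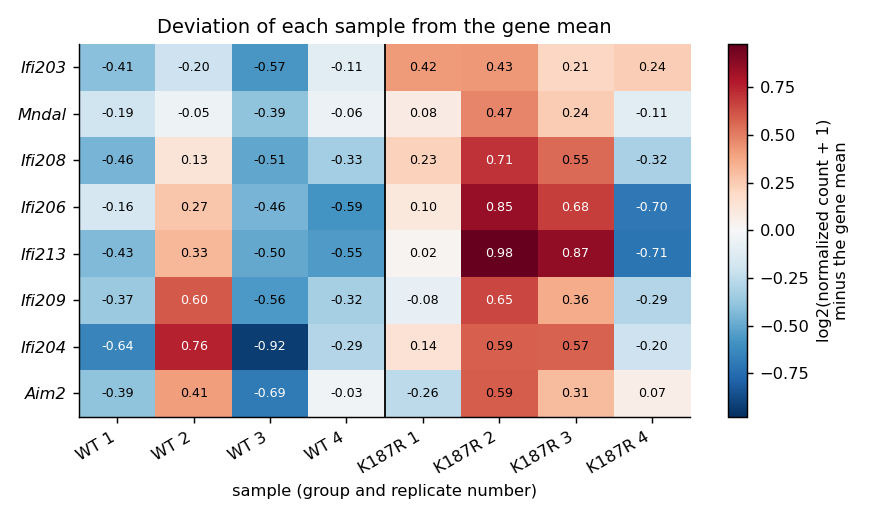
Deviation of each sample (columns) from the mean of each member (rows) on the log2(normalized count + 1) scale, printed in each cell and coloured from blue (below the mean) to red (above it), with WT to the left of the line and K187R to the right. WT 2, K187R 2 and K187R 3 are red in most rows, and the Ifi203 row alone is blue in all WT samples and red in all K187R samples.

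Over the 8 samples, the Pearson correlation of log2 values between members ran from 0.47 (Ifi206 with Ifi203) to 0.98 (Ifi213 with Ifi206), with a median of 0.82 over the 28 pairs. Ifi208 correlated with Ifi213 at 0.95 and with Mndal at 0.94, and Ifi209 with Ifi204 at 0.95. These correlations are descriptions over libraries that fall into sets, and some of the pairs share transcript windows. Outside the family, the genes whose profile was most like the mean member profile over the 8 samples were Ctse and Gbp8 (r = 0.995 each), Mx1 (0.991), Ntrk3 and Parp12 (0.990 each). Spearman's rho was 0.976, 1, 1, 0.929 and 1, and without the 2 farthest samples, K187R 2 and K187R 3, r was between 0.974 and 0.994 for these genes. The genes were picked for a high r over the same samples, so these values are no separate support for the likeness. Mx1, an interferon-induced GTPase that restricts viruses, had 15.4, 59.6, 10.1 and 19.2 normalized counts in WT 1 to 4 and 42.9, 117, 90.6 and 28.5 in K187R 1 to 4.

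The other family genes tested, Ifi207, Ifi211, Ifi214 and Ifi205, had log2 fold changes of 0.78, 0.64, 0.19 and 0.14, and none had an unadjusted limma p under 0.05. Of 15 genes of inflammasomes and pyroptosis, which include partners of AIM2 and sensors of other inflammasomes such as Nlrp3 and Nlrc4, 13 had a log2 fold change above 0 (median 0.46) and 9 had WT 2, K187R 2 and K187R 3 as their highest samples. Pycard, which encodes ASC, the adaptor that AIM2 recruits, was the one with an unadjusted p under 0.05, at 2360 ± 363 in WT and 2923 ± 269 in K187R (n = 4 each, SD, log2 fold change 0.32, adjusted p = 0.921 from limma). Casp1, the protease of the inflammasome, ranged from 287 to 1504 normalized counts and was highest in the same 3 samples as Aim2. The cGAS and STING list of 13 genes had a median of 0.01, with 7 above 0 and 0 at an unadjusted limma p under 0.05 in either direction. Among 15 genes of interferon receptors and their signalling the median was 0.05, and Ifngr1, the ligand-binding chain of the interferon-γ receptor, was the 1 with an unadjusted p under 0.05, lower in K187R (19968 ± 2445 against 13032 ± 275, n = 4 each, SD, adjusted p = 0.344 from limma). Of 30 interferon-stimulated genes outside the family, 28 had a log2 fold change above 0 (median 0.34), 7 were higher with an unadjusted p under 0.05 and 10 had the same 3 highest samples. None of these genes was called after adjustment in limma. Of all genes tested, 48.4% had a log2 fold change above 0, and 2.75% were higher in K187R with an unadjusted limma p under 0.05. WT 2, K187R 2 and K187R 3 were the highest samples for 8.46% of them.

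Some PYHIN genes and inflammasome genes are also expressed in myeloid cells. A list of 16 myeloid markers, none of them at 0 in any sample, summed to 45274, 94147, 45574 and 101094 normalized counts in WT 1 to 4 and to 71215, 90114, 92774 and 108042 in K187R 1 to 4. All 16 had a log2 fold change above 0, with a median of 0.47, 1 had an unadjusted limma p under 0.05, and 5 had WT 2, K187R 2 and K187R 3 as their highest samples. The shares over all genes tested were 48.4%, 4.39% and 8.46%. The sums were low in WT 1 and WT 3, where most members were low, and highest in WT 4 and K187R 4, where Lyz2 alone had 54522 and 57778. Cybb, one of the 5, had 4699 and 5378 in those samples and between 9667 and 11124 in WT 2, K187R 2 and K187R 3. Their part in the members' differences was not tested. In bulk samples a larger number of cells of a type and more RNA per cell cannot be told apart. Dendritic cell markers summed to between 898 and 1824 in WT and between 1235 and 2696 in K187R, with Xcr1, Clec9a and Siglech below a mean of 10. The 4 tested, Itgax, Flt3, Zbtb46 and Batf3, all had a log2 fold change above 0 (median 0.68), none with an unadjusted limma p under 0.05, and all 4 had WT 2, K187R 2 and K187R 3 as their highest samples. The part of these markers in the members' differences was not tested either. Markers of B cells summed to between 10853 and 17611, of which Ighm alone had between 9822 and 15618. All 9 had a log2 fold change above 0 (median 0.28), none with an unadjusted limma p under 0.05. Those other than Ighm were lowest in WT 4 and K187R 4. Ms4a1, for example, had 33.1 and 33.8 there and between 152 and 285 in the other samples. The part of the B cell markers was not tested. Markers of NK cells summed to between 987 and 1884, and of CD8 T cells to between 387 and 1141. Of the 4 NK cell markers tested, 2 had a log2 fold change above 0 (median 0.15). The other 2, Klrd1 and Klrc1, were lower in K187R with an unadjusted limma p under 0.05. Of the 2 CD8 T cell markers, 0 had a log2 fold change above 0 (median -0.16), and none had an unadjusted limma p under 0.05. The part of these markers was not tested.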

How the data were processed

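RNA seq of ROR-γt-/- T cells gave 4 samples with WT-ROR-γt and 4 with K187R-ROR-γt. Per the paper's methods and the submitters' notes, the authors trimmed reads with Cutadapt, aligned them with HISAT2 to GRCm38, counted them with featureCounts on GENCODE M15 and used DESeq2. Strand setting and treatment of multiply matching reads are not given in the sources used here. The deposited table holds a signal for each gene, its read count divided by a size factor per sample (0.842 to 1.18), and 0 columns were left unused. Whole reads were recovered for 100% of the values, within 0.01 of a read. The labels and the methods name different library kits.

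Because the deposited signal is not a count, differences were tested with limma (lmFit, eBayes with trend) on log2(normalized count + 1) for 16982 genes whose mean reached 10, with Benjamini-Hochberg adjustment and a threshold of 0.05. Single members were also tested by exact two-sided permutation over 70 splits. The recovered read counts entered edgeR and DESeq2 as alternatives, and DESeq2 called 31 genes. Counting error is relatively wider at low counts, and floors cover that error alone. Levels per length used merged exons of GENCODE M21, which also gave coordinates (22784 identifiers matched, 45 did not). Promoters came from RefSeq, where 7 members had an entry. Named genes are the 8 members, the genes outside the family with the most similar profile, and list genes with the highest mean, the smallest p or needed for a count. The members and lists were chosen with earlier results of these data known. The scripts were tested on simulated data without sample sets. The limit set there on the share of calls at unchanged genes was not applied to DESeq2. Other alternatives were pseudocounts, filters, normalizations, no trend, the replicate number or the sample set as a factor, and each sample left out. Tools were DESeq2 1.42.0, edgeR 4.0.16 and limma 3.58.1 in R 4.3.3, and Biopython 1.88, matplotlib 3.10.9, pandas 2.3.3, scipy 1.17.1 and numpy 2.4.6 in Python 3.11.15. A result is not reported here.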

Additional observations from a re-analysis of the deposited data

Results flagged for a closer look

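Ifi213 had 420.1 normalized counts in WT 2, while the other WT samples had between 227 and 248. On the log2(normalized count + 1) scale, the gap to the nearest of them was 0.857 of the range of the group, past Dixon's 95% critical value for 4 samples. Of the 16 groups examined, 8 members in each of WT and K187R, 1 was past that value, where chance gives about 0.8. WT 2 is in the sample set with a high Xist count.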

How the results depend on the processing

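Over 20 alternatives, the 8 members gave 160 log2 fold changes, of which 0 changed direction, 157 kept their side of the threshold and 3 passed it. DESeq2 called 31 genes in place of 0 (17 higher, 14 lower), 1 of them a member, Ifi203 (0.64, adjusted p = 0.000408). With the sample set as a factor limma called 1 gene, higher in K187R and no member, and with 1 sample left out 0 to 4 genes, 4 without WT 4, and 0 to 0 members. The cause was not tested. The counts at an unadjusted limma p under 0.05 were 746 genes, 329 (without WT 1) to 2181 (without WT 4) with 1 sample left out and 1394 with the sample set, and 729 in edgeR. For members they were 3, 1 to 6 with 1 sample left out, and 5 with the set.

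Same-numbered samples deviated from their group means together for numbers 1, 2 and 4 (correlation across genes 0.59, 0.66 and 0.63) but not for number 3 (-0.09), so the numbers were not taken to pair the samples. K187R 3 had a high Xist count and WT 3 a low one, so a block of number 3 joins female with male cells by that transcript. With the replicate block, limma called 0 genes (2046 at an unadjusted p under 0.05, 6 of them members) and edgeR 0 (1930 unadjusted). DESeq2 with the replicate block called 174 genes (117 higher, 57 lower), 2 of them members, Ifi203 (0.65, adjusted p = 1.86e-07) and Ifi208 (0.59, adjusted p = 0.0387).

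Log2 fold changes ranged from 0.56 to 0.72 for Ifi203, 0.25 to 0.44 for Mndal, 0.44 to 0.79 for Ifi208, 0.30 to 0.89 for Ifi204, 0.12 to 0.58 for Ifi209 and 0.15 to 0.55 for Aim2. The highest values of Ifi204, Ifi209 and Aim2 were without WT 2 and their lowest with the sample set. Depth limits Ifi204 most, at 40 to 132 reads per sample.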
